A study of Mus musculus with 29 samples.

Results

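Heat shock proteins and their DNAJ co-chaperones were followed as a set of 72 genes among the 20411 genes counted in 29 mouse hearts. The set holds the genes whose symbols begin with Hspa, Hspb, Hspd, Hspe or Hsph, with Hsp90, or with Dnaja, Dnajb or Dnajc, each followed by a number, and it leaves out pseudogenes. By the known place of their products, 33 of the 72 were counted as cytosolic and 8 with the lumen of the endoplasmic reticulum (ER). Another 8 were counted as mitochondrial, and 23 at the ER membrane or elsewhere. This last class also holds DNAJC genes such as the splicing factor Dnajc8 and the histone chaperone Dnajc9. The cytosolic class therefore does not hold every member that acts outside the ER and mitochondria. The filter on low counts kept 62 of the 72 genes for testing, among 12928 genes tested in all. The other 10 (Dnajb3, Dnajb7, Dnajb8, Dnajb13, Dnajc5b, Dnajc5g, Dnajc6, Dnajc22, Hspb9 and Hspb11) stayed at or below 2.59 CPM (a gene's count scaled to a common library size) in every heart, and Dnajb8 had no count in any.

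The study asked how tumour growth changes the heart when the liver is made to express the circadian repressor REV-ERBα. All mice were wild-type BALB/c animals and all received an adeno-associated virus (AAV) by vein, whose cargo was driven by Tbg, a hepatocyte promoter. The 4 groups were C26_REV-ERBa (AAV with REV-ERBα, then C26 tumour cells under the skin, n = 10), C26_GFP (AAV with green fluorescent protein, then C26 cells, n = 10), PBS_REV-ERBa (AAV with REV-ERBα, then phosphate-buffered saline, n = 5) and PBS_GFP (AAV with GFP, then saline, n = 4). The C26 line is a mouse colon carcinoma used as a model of cancer wasting, and the tumour cells were given 10 days after the virus. Each library came from the heart of 1 animal, from total RNA with no poly-A selection. The labels give no age or sex, no tumour size, and no species of the REV-ERBα insert, and the tumour-free groups carry the AAV as well.

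Heat shock proteins are molecular chaperones, which bind unfolded protein and help it fold, move or be degraded. HSP70 proteins work in cycles of ATP hydrolysis that DNAJ proteins start and nucleotide exchange factors such as the HSP110 proteins complete, HSP90 proteins act later on selected clients, and small heat shock proteins hold unfolded protein without using ATP. The cytosolic stress-inducible genes are switched on by heat shock factor 1 (HSF1) through heat shock elements, whereas the ER chaperones are switched on by the unfolded protein response, in part by ATF6 and XBP1 through ER stress elements. Heart muscle is known for high levels of several small heat shock proteins, which bind sarcomeric and cytoskeletal proteins.

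The sequences upstream of 6 members are shown for how alike the 2 inducible HSP70 genes are, for the ER stress elements of 3 ER lumen genes, and for the heat shock element of a mitochondrial gene. Each is the stretch of 250 bases that ends just before the RefSeq start of the gene, read 5′ to 3′ on the gene's strand (RefSeq, build GRCm38.p6). In Hspa1a (chr17:34972157-34972406, minus strand) and Hspa1b (chr17:34959239-34959488, minus strand), which both encode inducible HSP70, capitals mark the 3 bases at which they differ, the other 247 being identical.
Hspa1a: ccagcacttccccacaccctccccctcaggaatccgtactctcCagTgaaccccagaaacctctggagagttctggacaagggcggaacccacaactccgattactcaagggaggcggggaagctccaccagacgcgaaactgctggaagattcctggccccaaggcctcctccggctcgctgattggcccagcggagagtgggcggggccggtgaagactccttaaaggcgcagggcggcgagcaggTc
Hspa1b: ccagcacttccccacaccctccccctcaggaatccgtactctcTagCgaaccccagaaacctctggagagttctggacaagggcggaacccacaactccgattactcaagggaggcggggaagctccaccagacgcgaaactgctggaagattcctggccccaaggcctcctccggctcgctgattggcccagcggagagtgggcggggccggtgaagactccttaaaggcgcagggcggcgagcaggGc
In the next 4, capitals mark a match to a motif. Hspa5 encodes BiP, the HSP70 of the ER (chr2:34771840-34772089, plus strand), Hsp90b1 encodes GRP94, the HSP90 of the ER (chr10:86705445-86705694, minus strand), Dnajc3 encodes the ER co-chaperone P58IPK (chr14:118937682-118937931, plus strand), and Hspd1 encodes mitochondrial HSP60 (chr1:55087933-55088182, minus strand).
Hspa5: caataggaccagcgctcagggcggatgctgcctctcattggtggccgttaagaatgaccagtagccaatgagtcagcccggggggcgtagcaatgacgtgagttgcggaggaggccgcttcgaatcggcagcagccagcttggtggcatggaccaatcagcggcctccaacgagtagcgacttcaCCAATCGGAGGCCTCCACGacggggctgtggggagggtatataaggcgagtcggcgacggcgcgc
Hsp90b1: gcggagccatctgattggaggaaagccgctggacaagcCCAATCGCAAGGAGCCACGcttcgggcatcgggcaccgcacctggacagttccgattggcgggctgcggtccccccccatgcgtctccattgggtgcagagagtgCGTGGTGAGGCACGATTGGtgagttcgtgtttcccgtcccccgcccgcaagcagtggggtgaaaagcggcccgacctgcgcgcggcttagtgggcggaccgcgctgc
Dnajc3: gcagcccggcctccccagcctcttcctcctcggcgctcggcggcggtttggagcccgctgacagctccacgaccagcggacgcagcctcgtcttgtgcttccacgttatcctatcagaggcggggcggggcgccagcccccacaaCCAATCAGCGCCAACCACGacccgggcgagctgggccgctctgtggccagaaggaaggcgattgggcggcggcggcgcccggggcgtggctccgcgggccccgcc
Hspd1: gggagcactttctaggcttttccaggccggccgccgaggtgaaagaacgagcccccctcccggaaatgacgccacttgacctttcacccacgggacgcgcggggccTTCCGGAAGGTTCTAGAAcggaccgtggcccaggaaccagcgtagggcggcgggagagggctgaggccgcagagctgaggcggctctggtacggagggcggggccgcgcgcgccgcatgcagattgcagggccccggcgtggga
The ER stress element was searched as CCAAT and CCACG with 9 bases of any kind between them, and the heat shock element as GAA, TTC and GAA with 2 bases of any kind between neighbours, each on both strands. The ER stress element was found in 3 members, all 3 of them ER lumen genes, of the 7 ER lumen members that had a RefSeq promoter, and in 37 of all 32851 promoters (0.113%). Hsp90b1 held it once on each strand. The heat shock element was found in 3 members, Dnajb6, which was the 1 match among 28 cytosolic members with a RefSeq promoter, and the neighbouring mitochondrial genes Hspd1 and Hspe1, whose promoters share it, and in 153 of all promoters (0.47%). In Hspd1 its capitals cover 2 overlapping matches. No member matched the related element ERSE-II, searched as ATTGG and CCACG with 1 base between them (0.0304% of all promoters). Hspa1a and Hspa1b held neither motif in these letters within this window, which says nothing about the factors that bind them, and a match is a description of the letters only.

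Library totals were 3376113 to 7619837 counts in C26_REV-ERBa, 5684452 to 16853646 in C26_GFP, 3207497 to 5355029 in PBS_REV-ERBa and 3467940 to 14740569 in PBS_GFP. The 5 libraries above 10000000 counts all carried GFP, 3 of them with a tumour and 2 without. The 8 cardiomyocyte markers were present in every library, summing to 32326 CPM or more. Nr1d1, the gene of REV-ERBα, did not pass between the viruses in these hearts. Its log2 fold change was 0.28 ± 0.16 with tumour and 0.03 ± 0.24 without (edgeR adjusted p = 0.287 and 1). The labels do not give the insert's species, so whether its reads would count under mouse Nr1d1 is not known. C26_REV-ERBa replicate 9 stood apart from its group. It had that group's lowest cardiomyocyte sum (35174 CPM), and its 6 adipocyte markers summed to 470.7 CPM, against at most 19.9 CPM in the other 9 hearts of the group. Among the 28 members described below by library, 8 were highest in it by a wide gap. Results for Hspa1a, Hspa1b, Hsp90aa1 and Hsp90b1 that rest on it are given with and without it. In a whole heart, fewer cells of a type and less RNA per cell cannot be told apart.

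Per kilobase of transcript, the level that allows genes to be compared, the set spanned a wide range in these hearts. Hspb7, a small heat shock protein of heart and muscle, was highest with a mean of 2060 CPM per kb over all 29 hearts, followed by Hspb6 (651 CPM per kb), the constitutive HSP90 gene Hsp90ab1 (510.1 CPM per kb), Hspb8 (478 CPM per kb) and Hspb1 (300.4 CPM per kb). The constitutive cytosolic HSP70, Hspa8, averaged 298 CPM per kb and the ER HSP70, Hspa5, averaged 270.3 CPM per kb. The mitochondrial HSP70, Hspa9, averaged 179.8 CPM per kb. The stress-inducible genes sat far lower, Hsp90aa1 at 47.3 CPM per kb, Hsph1 at 13.9 CPM per kb, Hspa1a at 4.33 CPM per kb and Hspa1b at 2.56 CPM per kb. Dnajc17, at 2.27 CPM per kb, was the lowest tested member.

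**Figure D1:**
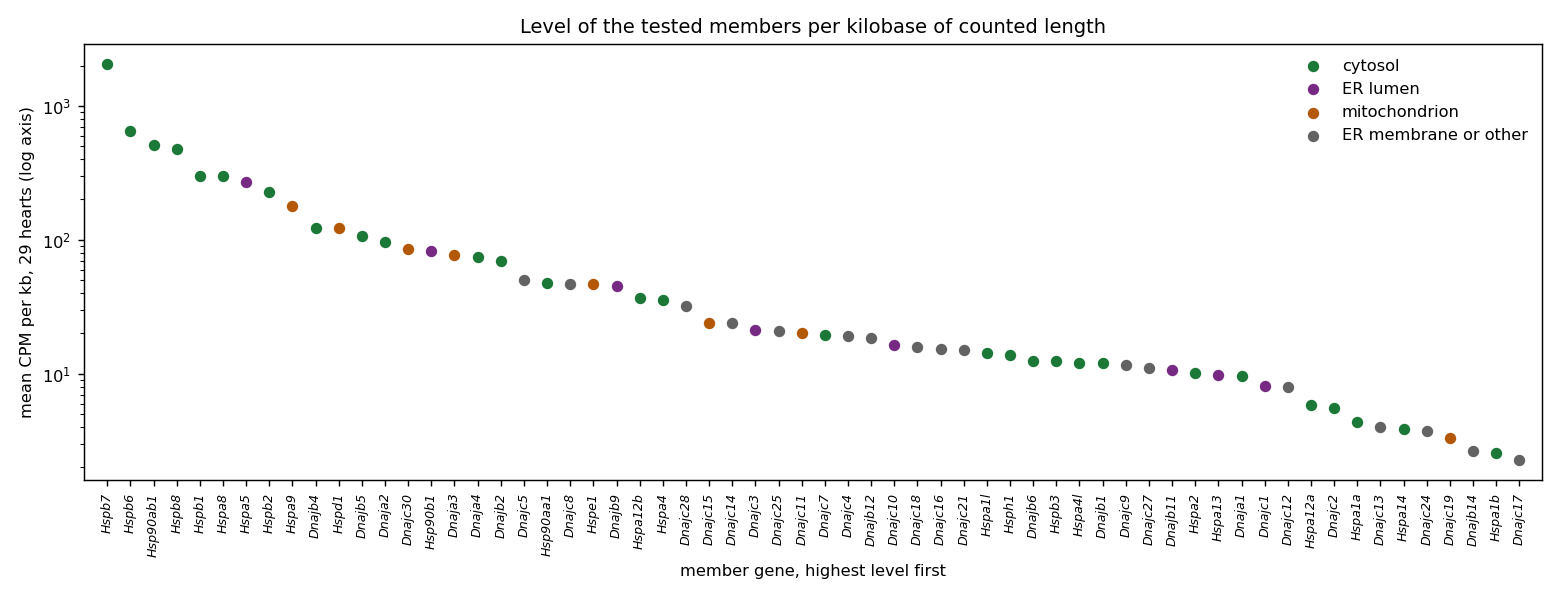
Mean level of the members in CPM per kilobase over all 29 hearts, on a log axis, coloured by compartment. Small heat shock proteins lead (Hspb7, 2060 CPM per kb), and the inducible HSP70 genes Hspa1a (4.33) and Hspa1b (2.56) lie near the low end.

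The first comparison, C26_GFP against PBS_GFP hearts, asks what a tumour does to these genes under the control virus. In tumour-bearing hearts 14 of 29 cytosolic and 6 of 8 mitochondrial chaperones were lower, while 2 of 8 ER lumen genes were higher and none lower. The 2 were Dnajc10 and Dnajc1, an ER membrane protein whose J domain faces the lumen and which was counted with the lumen genes. Leaving out 1 heart gave 1 to 3 higher and 0 to 1 lower ER lumen genes, and with libraries thinned to equal depth none passed. The difference between compartments is described here and was not itself tested. Of the 62 members tested, 6 were higher, 21 lower and 35 did not pass (edgeR quasi-likelihood test, Benjamini-Hochberg adjusted p below 0.05 over all genes), where 28.2% of all genes tested passed, 14.2% higher and 14% lower. The cytosolic median log2 fold change was -0.16, and 1 cytosolic member was higher. The mitochondrial median was -0.27, and all 8 values were below 0. The ER lumen median was 0.15, and 7 of 8 values were above 0. Among 17 other members 3 were higher and 1 lower, with a median of -0.07. The median over all genes tested was 0.00. In 13 members no heart of either group lay within the range of the other, where 12% of all genes had no overlap. These were 7 cytosolic, 2 ER lumen, 2 mitochondrial and 2 other members. Without the 5 deepest libraries 14 members passed, 3 higher and 11 lower, where 15% of all genes passed.

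**Figure D2:**
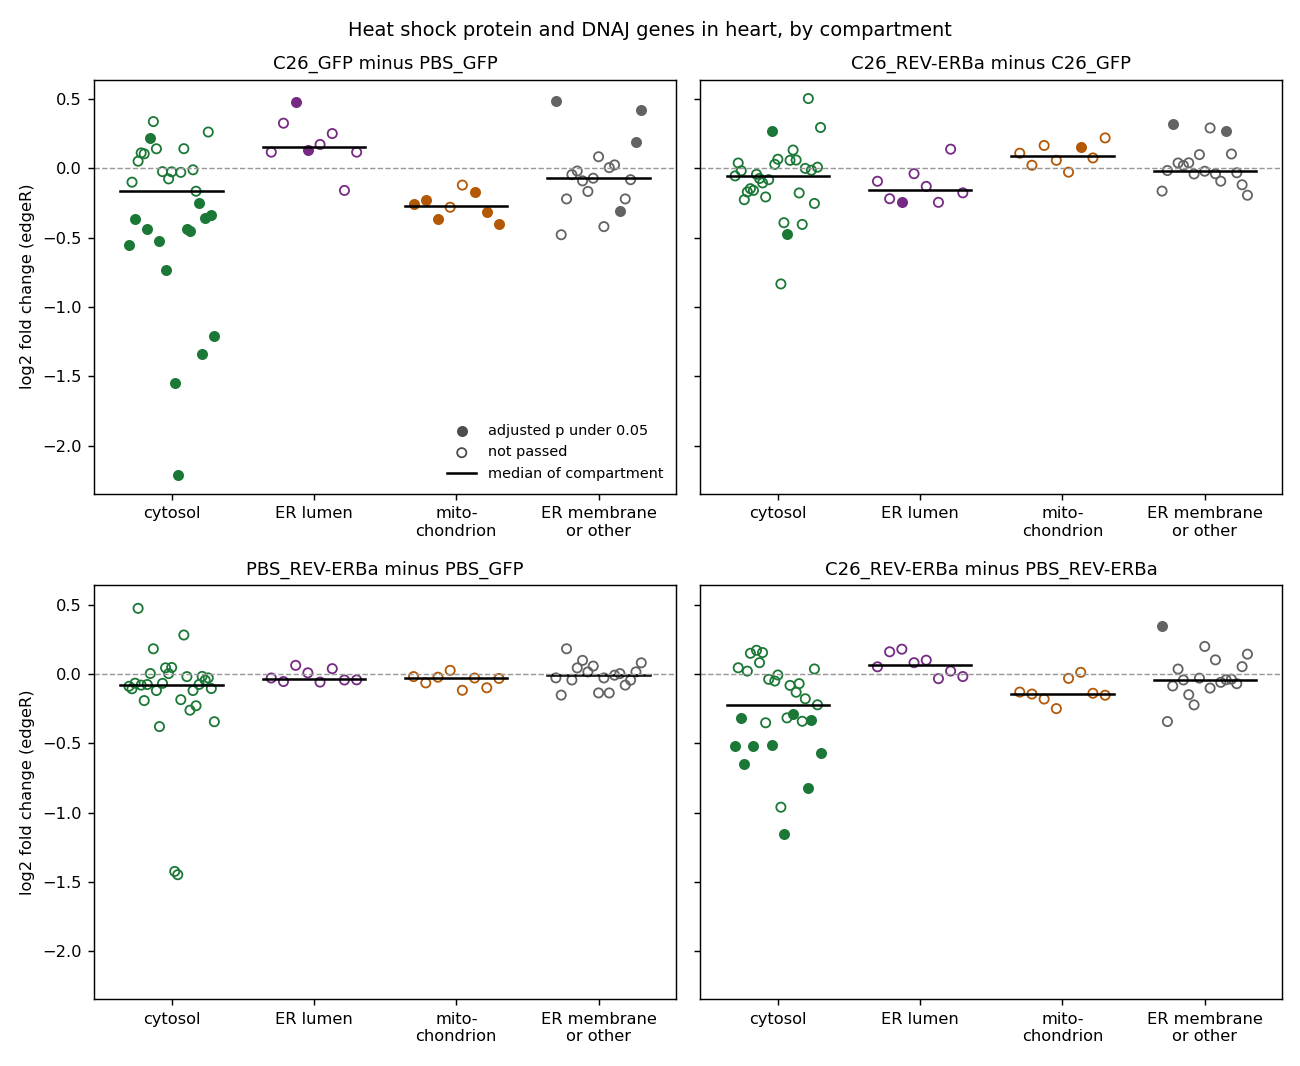
Log2 fold change of each tested member by compartment, for the tumour effect under each virus and for the REV-ERBα against the GFP virus with and without a tumour. Filled points passed an adjusted p of 0.05 in edgeR, open points did not, and the line is the compartment's median. In GFP mice the cytosolic median was -0.16, the mitochondrial median -0.27 and the ER lumen median 0.15.

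The inducible cytosolic HSP70 genes showed the largest falls. Hspa1b (chr17:34956429-34959238, minus strand, mm10) had a lowest value of 2.42, a median of 4.79 and a highest of 6.95 CPM in the 10 C26_GFP hearts, against 21.2, 29.2, 17.2 and 18.9 CPM in the 4 PBS_GFP hearts. The groups did not overlap, the lowest tumour-free heart standing more than 10 CPM above the highest tumour-bearing one. The log2 fold change was -2.21 ± 0.28 (SE, edgeR adjusted p = 2.41e-06). Hspa1a (chr17:34969359-34972156, minus strand) had a lowest value of 3.06, a median of 9.23 and a highest of 26.02 CPM in C26_GFP hearts, against 34.0, 38.2, 26.1 and 25.9 CPM in PBS_GFP hearts. Only C26_GFP replicate 10 reached the range of the tumour-free hearts. The log2 fold change was -1.55 ± 0.37 (SE, edgeR adjusted p = 0.00235), and it did not pass without the 5 deepest libraries (-1.11 ± 0.58, adjusted p = 0.20). Because 58.8% of the 50-base windows of the Hspa1a transcript are also found in Hspa1b, the split of reads between them is uncertain. Their sum averaged 15.5 ± 7.40 CPM in C26_GFP and 52.6 ± 11.2 CPM in PBS_GFP hearts (SD, n = 10 and 4), with a log2 fold change of -1.78 ± 0.32 (SE, edgeR adjusted p = 0.000157).

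The HSP110 family, which resets HSP70 after a folding cycle, fell as well. Hsph1 (chr5:149616845-149636315, minus strand) had a lowest value of 25.6, a median of 31.6 and a highest of 66.6 CPM in C26_GFP hearts, against 71.6, 106, 66.9 and 73.8 CPM in PBS_GFP hearts. The groups did not overlap, though C26_GFP replicate 6 came within 1 CPM of the lowest tumour-free heart and the next C26_GFP heart was at 35.6 CPM. The log2 fold change was -1.21 ± 0.17 (SE, edgeR adjusted p = 7.9e-06). Its relatives Hspa4 (-0.44 ± 0.09) and Hspa4l (-0.45 ± 0.09) also fell (edgeR adjusted p = 0.00089 and 0.000585). Hspa12a, a distant member of the HSP70 family, had a lowest value of 20.0, a median of 26.1 and a highest of 30.7 CPM in C26_GFP hearts, against 47.1, 44.5, 41.3 and 38.4 CPM in PBS_GFP hearts. The groups were fully apart, and its log2 fold change was -0.73 ± 0.10 (SE, edgeR adjusted p = 3.51e-06). Hspa8, the constitutive cytosolic HSP70, had a median of 667 CPM (491 to 814) in C26_GFP hearts, against 647, 715, 588 and 709 CPM in PBS_GFP hearts. These ranges overlapped fully and its log2 fold change was -0.01 ± 0.12 (SE, edgeR adjusted p = 0.968). Because 74.8% of the 50-base windows of Hspa8 are also found in other genes, its level is uncertain.

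**Figure D3:**
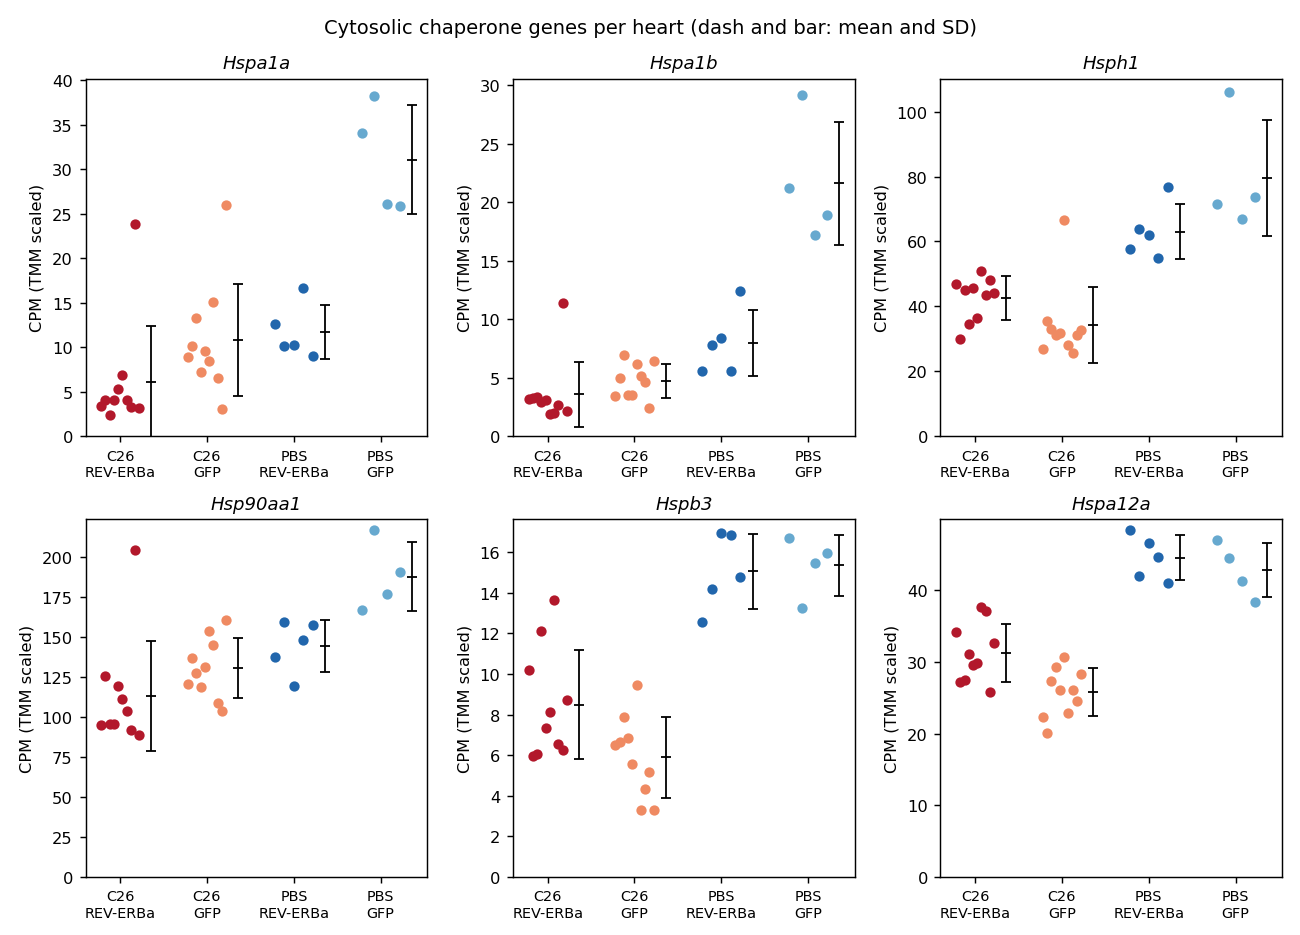
CPM of 6 cytosolic members in each heart by group, with the group mean and SD (the bar of Hspa1a in C26_REV-ERBa ends at the axis). Hspa1a and Hspa1b are highest in PBS_GFP hearts (25.9 to 38.2 and 17.2 to 29.2 CPM), and C26_REV-ERBa replicate 9 lies above the other 9 hearts of its group (23.8 and 11.4 CPM).

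Of the cytosolic HSP90 genes, the inducible form fell and the constitutive form did not pass. Hsp90aa1, the inducible form, had a lowest value of 104, a median of 129 and a highest of 161 CPM in C26_GFP hearts, against 167, 216, 177 and 190.4 CPM in PBS_GFP hearts. No heart of 1 group lay within the other, and the log2 fold change was -0.52 ± 0.15 (SE, edgeR adjusted p = 0.00822), but without the 5 deepest libraries it was -0.51 ± 0.21 and did not pass (adjusted p = 0.103). Because 58.5% of the 50-base windows of Hsp90aa1 are also found in other genes, its level is uncertain. Hsp90ab1, the constitutive form, had a median of 1316 CPM (1150 to 1428) in C26_GFP hearts, against 1372, 1386, 1196 and 1359 CPM in PBS_GFP hearts, and its log2 fold change of -0.02 ± 0.06 did not pass (edgeR adjusted p = 0.813).

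Of the cytosolic DNAJ genes, which deliver clients to HSP70, 3 fell and 1 rose. Dnaja1 had a median of 34.7 CPM (28.8 to 45.4) in C26_GFP hearts, against 44.7, 60.6, 46.8 and 54.1 CPM in PBS_GFP hearts. Only the top of the tumour-bearing range touched the tumour-free range, and the log2 fold change was -0.55 ± 0.11 (SE, edgeR adjusted p = 0.000404). Dnajb5 (-0.44 ± 0.12, edgeR adjusted p = 0.00756, but 0.0619 without PBS_GFP replicate 4) and Dnaja4 (-0.37 ± 0.09, adjusted p = 0.00217) fell too. Dnajb6, which keeps aggregation-prone proteins soluble, rose by 0.22 ± 0.08 (SE, edgeR adjusted p = 0.0326), a call lost without C26_GFP replicate 10 or PBS_GFP replicate 1 or 4 (adjusted p up to 0.166). Settings other than leaving out 1 heart lost the call of Dnajb6 in 4, and of Dnajb5 and Dnaja4 in 1 each. Dnajb1, the classical heat-inducible DNAJ gene, had a median of 32.8 CPM (26.8 to 50.1) in C26_GFP hearts, against 24.1, 45.1, 31.9 and 38.1 CPM in PBS_GFP hearts. Its values overlapped fully and its log2 fold change was 0.05 ± 0.21 (SE, edgeR adjusted p = 0.888). Because 51.9% of the 50-base windows of Dnaja4 and 42.8% of those of Dnajb6 are also found in other genes, their levels are uncertain.

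Among the small heat shock proteins, 4 of the 6 named here fell. Hspb3, which pairs with Hspb2 in muscle, had a lowest value of 3.27, a median of 6.02 and a highest of 9.44 CPM in C26_GFP hearts, against 16.7, 13.3, 15.5 and 16.0 CPM in PBS_GFP hearts. All tumour-bearing hearts were below all tumour-free ones, and the log2 fold change was -1.34 ± 0.21 (SE, edgeR adjusted p = 2.92e-05). Hspb6, which regulates contraction and survival in heart muscle, had a median of 786 CPM (686 to 919) in C26_GFP hearts, against 996, 923, 1097 and 1091 CPM in PBS_GFP hearts. It did not overlap by a narrow gap, and its log2 fold change was -0.36 ± 0.09 (SE, edgeR adjusted p = 0.00457). Hspb8, a partner of BAG3 in the removal of damaged muscle protein, fell by 0.33 ± 0.08 and Hspb2 by 0.25 ± 0.10 (SE, edgeR adjusted p = 0.00339 and 0.0493). The call of Hspb2 was lost in 21 of the 29 ways to leave out 1 heart (adjusted p up to 0.126). It was also lost in 7 other settings, and the call of Hspb8 was lost in 1. Hspb7, the most abundant member, had a median of 6332 CPM (5134 to 7959) in C26_GFP hearts, against 5593, 4590, 5144 and 6026 CPM in PBS_GFP hearts. These ranges overlapped and its log2 fold change was 0.26 ± 0.13 (SE, edgeR adjusted p = 0.125). Hspb1 (HSP27) did not pass either, at -0.16 ± 0.18 (SE, edgeR adjusted p = 0.532), and 60.4% of its 50-base windows are also found in other genes.

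Most ER lumen genes had values above 0, of small size. Dnajc1, an ER membrane protein whose J domain faces the lumen, had a lowest value of 33.4, a median of 41.5 and a highest of 46.1 CPM in C26_GFP hearts, against 29.6, 30.8, 26.7 and 27.6 CPM in PBS_GFP hearts. Every tumour-bearing heart was above every tumour-free one, and the log2 fold change was 0.48 ± 0.10 (SE, edgeR adjusted p = 0.000506). It did not pass with all libraries thinned to equal depth (0.35, adjusted p = 0.0611). Dnajc10, an ER reductase of disulphide bonds, had a median of 68.2 CPM (66.2 to 73.0) in C26_GFP hearts, against 61.3, 64.8, 65.1 and 60.2 CPM in PBS_GFP hearts. It did not overlap either, with a log2 fold change of 0.13 ± 0.05 (SE, edgeR adjusted p = 0.0464). Its call was lost on leaving out any 1 of 10 hearts (C26_GFP replicates 1, 3, 7, 8, 9 and 10 and all 4 PBS_GFP hearts, adjusted p = 0.0510 to 0.138) and in 7 other settings, among them the fit without the 5 deepest libraries (0.16, adjusted p = 0.162).

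The classical targets of the unfolded protein response did not pass in edgeR with all hearts. Hspa5 (BiP) had a lowest value of 562, a median of 659 and a highest of 1192 CPM in C26_GFP hearts, against 737, 690.9, 681 and 689.9 CPM in PBS_GFP hearts. The tumour-free hearts lay close together and the tumour-bearing hearts lay on both sides of them, with replicates 7 and 10 highest, at 1096 and 1192 CPM. The log2 fold change was 0.12 ± 0.15 (SE, edgeR adjusted p = 0.595). Hsp90b1 (GRP94) had a median of 237 CPM (206 to 342) in C26_GFP hearts, against 216, 216, 211 and 204 CPM in PBS_GFP hearts. Most tumour-bearing hearts were above the tumour-free ones, and the log2 fold change was 0.25 ± 0.11 (SE, edgeR adjusted p = 0.0874). It passed without C26_REV-ERBa replicate 9, which enters through the shared estimate of spread (adjusted p = 0.0325). Dnajb9, which represses the sensor IRE1, had 0.33 ± 0.13, Dnajc3 had 0.17 ± 0.09, and Dnajb11, a BiP co-chaperone, had 0.12 ± 0.11 on the log2 scale (SE, edgeR adjusted p = 0.0684, 0.148 and 0.438). Dnajb9 passed on leaving out C26_GFP replicate 3, 6 or 9 (adjusted p = 0.0267 to 0.0445). With limma voom Hsp90b1 (0.22, adjusted p = 0.0475) and Dnajb9 (0.29, adjusted p = 0.0375) passed as higher, while Hspa5, Dnajc3 and Dnajb11 did not pass. Hspa13, an HSP70 of microsomes, was the 1 ER lumen member below 0, at -0.16 ± 0.07 (edgeR adjusted p = 0.0966). It passed as lower without C26_GFP replicate 6 (-0.18, adjusted p = 0.0418) and with limma voom (-0.17, adjusted p = 0.0314). The summed level of the 8 genes had a median of 1279 CPM (1173 to 2005) in C26_GFP hearts, against 1246 CPM (1217 to 1299) in PBS_GFP hearts.

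**Figure D4:**
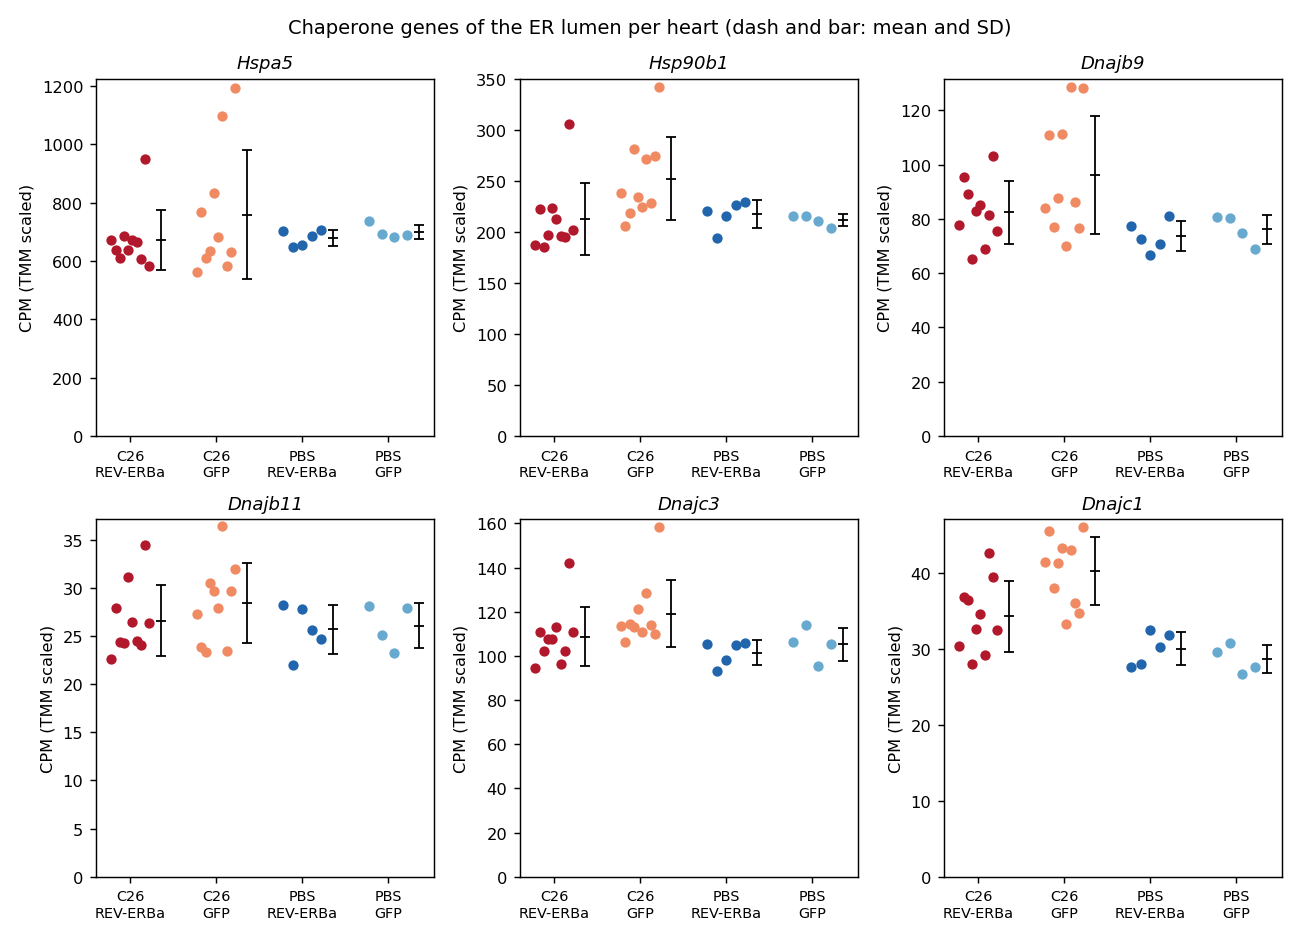
CPM of 6 ER lumen members in each heart by group, with the group mean and SD. C26_GFP hearts spread widely for Hspa5 (562 to 1192 CPM) while PBS_GFP hearts lie between 681 and 737 CPM, and the Dnajc1 values of C26_GFP and PBS_GFP hearts do not overlap.

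Of the mitochondrial members 6 fell, by small amounts. Hspd1, the mitochondrial chaperonin HSP60, had a lowest value of 205, a median of 265 and a highest of 316 CPM in C26_GFP hearts, against 319, 330.5, 325 and 336 CPM in PBS_GFP hearts. A narrow gap separated the groups, and the log2 fold change was -0.31 ± 0.07 (SE, edgeR adjusted p = 0.00104). Hspe1, its lid protein HSP10, lies head to head with Hspd1 on chromosome 1 and had a median of 30.9 CPM (22.8 to 43.2) in C26_GFP hearts, against 43.9, 42.5, 41.3 and 36.3 CPM in PBS_GFP hearts. The ranges overlapped in part, and the log2 fold change was -0.40 ± 0.11 (SE, edgeR adjusted p = 0.00827). Dnajc15 (-0.37 ± 0.09), Dnaja3 (-0.26 ± 0.06), Dnajc11 (-0.23 ± 0.07) and Hspa9, the mitochondrial HSP70 that drives import (-0.17 ± 0.06), also fell (edgeR adjusted p = 0.00259, 0.00222, 0.00883 and 0.0342). The call of Hspa9 was lost on leaving out any 1 of 7 hearts (C26_GFP replicates 1, 2, 3 and 10, PBS_GFP replicates 1, 3 and 4), with an adjusted p of up to 0.167. Dnajc11 lost its call in 1 of the 29 ways to leave out 1 heart. In other settings Hspa9 lost its call in 5, Dnajc15 in 2, and Dnaja3 and Dnajc11 in 1 each. The other 2 mitochondrial members, Dnajc19 (-0.28) and Dnajc30 (-0.12), did not pass. For Hspd1 and Hspe1, 44.8% of the 50-base windows of each are also found in other genes.

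At the ER membrane and elsewhere, Dnajb12, which works in ER-associated degradation, was higher and its groups did not overlap (31.1 to 46.6 CPM in C26_GFP and 24.7 to 28.4 CPM in PBS_GFP hearts). Its log2 fold change was 0.48 ± 0.11 (SE, edgeR adjusted p = 0.0011). Dnajc9, a histone chaperone, rose by 0.42 ± 0.10 and Dnajc8, a splicing factor, rose by 0.19 ± 0.07 (SE, edgeR adjusted p = 0.00157 and 0.0324). The call of Dnajc8 was lost without C26_GFP replicate 7 or PBS_GFP replicate 1, 2 or 4 (adjusted p up to 0.109). Dnajc28 fell by 0.30 ± 0.09 (SE, edgeR adjusted p = 0.0129). Its values were 77.8 to 109.5 CPM in C26_GFP hearts, against 125, 118, 110.5 and 111 CPM in PBS_GFP hearts, so a narrow gap separated the groups. Dnajc28 did not pass without PBS_GFP replicate 1 (adjusted p = 0.0674). In settings other than leaving out 1 heart, Dnajc8 lost its call in 5, Dnajc9 and Dnajc28 in 2 each, and Dnajb12 in 1.

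Genes that work with these chaperones, from lists of pathway partners, were counted in the same comparison. Of 32 tested partners of HSF1 and the cytosolic chaperones, 2 were higher and 9 lower in C26_GFP than in PBS_GFP hearts, with a median of -0.07, where 14.2% of all genes tested were higher and 14% lower. Serpinh1, an ER collagen chaperone that HSF1 induces, averaged 224 CPM in C26_GFP and 452 CPM in PBS_GFP hearts and had a log2 fold change of -1.01 ± 0.17 (SE, edgeR adjusted p = 6.3e-05). The HSP90 co-chaperones Fkbp4 (-0.81 ± 0.14) and Stip1 (-0.67 ± 0.11) and the HSP70 co-chaperone Bag2 (-0.63 ± 0.11) also fell. The higher 2 were Fkbp5, a glucocorticoid-induced HSP90 co-chaperone (2.17 ± 0.43, SE), and Bag6 (0.18 ± 0.06), both named after their values were seen. Of 30 tested partners in ER stress and ER folding, 7 were higher and 1 lower, with a median of 0.16. The stress sensor Atf6 rose by 0.56 ± 0.13, the response factor Xbp1 by 0.73 ± 0.16, the disulphide isomerase P4hb by 0.47 ± 0.08 and the translocon component Sec63 by 0.35 ± 0.08 on the log2 scale. Of 12 tested mitochondrial partners 1 was higher (Grpel2, 0.28 ± 0.09) and 2 were lower (Timm44, -0.35 ± 0.08, and Grpel1, -0.24 ± 0.06), with a median of 0.07. These mitochondrial counts are near the shares over all genes. Trap1, the mitochondrial HSP90, did not pass (0.16 ± 0.07, edgeR adjusted p = 0.0818).

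Markers of cell types and of acute activation were counted between the same groups, where 14.2% of all genes tested were higher and 14% lower. Of the 8 cardiomyocyte markers 5 were lower and 1 higher in C26_GFP hearts, and they summed to 32326 to 44346 CPM in C26_GFP and 42620 to 47573 CPM in PBS_GFP hearts. Of 8 macrophage markers 4 were higher and none lower, with sums of 295 to 458 CPM in C26_GFP and 232 to 282 CPM in PBS_GFP hearts. Of 12 immediate early genes, which respond within minutes to stimulation or handling, 3 were higher and none lower, with sums of 494 to 1520 CPM in C26_GFP and 459 to 737 CPM in PBS_GFP hearts. Of 7 endothelial markers 3 were higher and 1 lower (1091 to 1340 CPM summed in C26_GFP and 1219 to 1299 CPM in PBS_GFP hearts), and of 7 fibroblast markers 2 were higher and none lower (1031 to 1577 CPM in C26_GFP and 959 to 1198 CPM in PBS_GFP hearts). Of 6 tested hepatocyte markers 2 were lower with a median of -1.69, and the list summed to 0.967 to 35.6 CPM in C26_GFP and 1.52 to 98.8 CPM in PBS_GFP hearts. The 1 skeletal muscle marker tested was lower (-0.37), the list summing to 2634 to 3171 CPM in C26_GFP and 3667 to 4061 CPM in PBS_GFP hearts, with 1 of its 7 genes at 0 in all C26_GFP and 2 in all PBS_GFP hearts. No atrial, adipocyte, neutrophil or erythroid marker that was tested passed. No marker of cardiomyocytes, macrophages, endothelium, fibroblasts or hepatocytes and no immediate early gene was at 0 in all hearts of either group. Their part in the result was not tested. Without the 4 C26_GFP hearts highest in immediate early genes (replicates 2, 3, 7 and 8), a choice made after seeing the data, 23 members passed where 21.6% of all genes did, Hspa1b stood at -2.35 ± 0.33 (SE, edgeR adjusted p = 5.05e-05), Hsph1 at -1.11 ± 0.19 (adjusted p = 0.00027), and Hsp90b1 passed at 0.33 ± 0.12 (adjusted p = 0.0424).

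The second comparison, C26_REV-ERBa against PBS_REV-ERBa hearts, puts the same tumour question under the REV-ERBα virus and shares no library with the first. Of the 62 members, 1 was higher, 10 lower and 51 did not pass, where 7.23% of all genes passed (4.05% higher and 3.19% lower). All 10 lower members were cytosolic, with a cytosolic median of -0.22, and no ER lumen or mitochondrial member passed (medians 0.07 and -0.14, with 0 and 4 members at an unadjusted p below 0.05). DESeq2 also called 11 members, 1 higher and 10 lower, where 8.42% of all genes passed. Of the 10 lower members 9 were also lower in GFP mice, which is 90% of these 10 and 42.9% of the 21 lower there. Over all genes tested, 320 were lower in both, which is 77.7% of the genes lower here and 17.7% of those lower in GFP mice. Dnajb12 was the 1 member higher here (0.35 ± 0.10, SE, edgeR adjusted p = 0.0351) and was higher in GFP mice too.

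Hspa1b had a lowest value of 1.89, a median of 2.99 and a highest of 11.4 CPM in C26_REV-ERBa hearts, against 5.52, 7.82, 8.36, 5.56 and 12.4 CPM in PBS_REV-ERBa hearts. Replicate 9 alone among the tumour-bearing hearts was above 5 CPM, and the log2 fold change was -1.16 ± 0.32 with it (SE, edgeR adjusted p = 0.0259) and -1.55 without it. Hspa1a had a lowest value of 2.39, a median of 4.02 and a highest of 23.8 CPM in C26_REV-ERBa hearts, against 12.6, 10.1, 10.2, 16.7 and 8.94 CPM in PBS_REV-ERBa hearts. Here too replicate 9 alone overlapped with the tumour-free hearts. Hspa1a had -0.96 ± 0.43 with it and did not pass (SE, edgeR adjusted p = 0.17), and it passed at -1.53 without it. Hsp90aa1 likewise did not pass in edgeR with replicate 9 (-0.35 ± 0.14) and passed without it (-0.49). With limma voom and all hearts both genes passed, Hspa1a at -1.43 and Hsp90aa1 at -0.47 (limma voom adjusted p = 0.0100 and 0.00706).

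Hsph1 had a median of 44.6 CPM (29.96 to 51.0) in C26_REV-ERBa hearts, against 57.7, 63.7, 62.0, 55.0 and 76.8 CPM in PBS_REV-ERBa hearts. The groups did not overlap and the log2 fold change was -0.57 ± 0.16 (SE, edgeR adjusted p = 0.0325). Hspa12a had a median of 30.5 CPM (25.8 to 37.6) in C26_REV-ERBa hearts, against 48.5, 42.0, 46.6, 44.6 and 41.0 CPM in PBS_REV-ERBa hearts, again with no overlap, and a log2 fold change of -0.51 ± 0.09 (SE, edgeR adjusted p = 0.00077). Dnaja1 was the third member whose groups did not overlap, at -0.52 ± 0.11 (SE, edgeR adjusted p = 0.00264), where 1.87% of all genes did not overlap. Hspb3 (-0.82 ± 0.20), Dnajb1 (-0.65 ± 0.19), Dnajb5 (-0.52 ± 0.11), Hspb6 (-0.33 ± 0.09), Dnaja4 (-0.32 ± 0.08) and Hspa4 (-0.29 ± 0.09) made up the rest of the lower members. Leaving out PBS_REV-ERBa replicate 2 left 4 of the calls (Dnaja1, Dnajb5, Hspb3 and Hspa12a), among 521 genes (4.03% of all genes). Without PBS_REV-ERBa replicate 4 or 5, 7 and 5 members passed, where 4.84% and 3.68% of all genes did. Without C26_REV-ERBa replicate 2 or 6, 7 members passed, where 4.89% and 5.36% of all genes did. Hspa1b did not pass without PBS_REV-ERBa replicate 2 or 5 (adjusted p = 0.053 and 0.135), and Hsph1 did not pass without PBS_REV-ERBa replicate 2, 3 or 5 or C26_REV-ERBa replicate 2 or 6 (adjusted p = 0.0527 to 0.120). Of the 29 ways to leave out 1 heart, Hspa4 lost its call in 13 (adjusted p up to 0.126), Dnajb1 in 8 (up to 0.151), the higher Dnajb12 in 7 (up to 0.0890), Dnaja4 in 3 (up to 0.0675) and Hspb6 in 2 (up to 0.0958). Of the 32 tested partners of HSF1 and the cytosolic chaperones, 7 were lower here and 1 higher. Over all genes tested, 3.19% were lower and 4.05% higher, which holds for the marker counts below too. Among the lower were the ER collagen chaperone Serpinh1 (-0.77) and the HSP90 co-chaperones Fkbp4 (-0.43) and Stip1 (-0.35). Of the cardiomyocyte markers 1 of 8 was lower here, and 4 of the 8 macrophage markers were higher (272 to 363 CPM summed in C26_REV-ERBa, against 200.4 to 283 CPM in PBS_REV-ERBa hearts).

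The third comparison, C26_REV-ERBa against C26_GFP hearts, asks whether these genes differ between the REV-ERBα and GFP viruses in tumour-bearing mice. This difference between viruses, with or without a tumour, is called the virus effect below, and no group went without a virus. Few members passed and no member had groups that did not overlap, as for all but 0.0232% of genes. Of 62 members 4 were higher, 2 lower and 56 did not pass, where 7.2% of all genes passed (3.75% higher and 3.45% lower). The cytosolic median was -0.05, the ER lumen median -0.15 with 7 of 8 values below 0, and the mitochondrial median 0.09.

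The 4 higher members were Hspa12a, Hspa9, Dnajc28 and Dnajc12. Hspa12a had a median of 30.5 CPM (25.8 to 37.6) in C26_REV-ERBa and 26.1 CPM (20.0 to 30.7) in C26_GFP hearts, a log2 fold change of 0.27 ± 0.08 (SE, edgeR adjusted p = 0.0331). Hspa9 had a median of 563 CPM (498 to 701) in C26_REV-ERBa and 501 CPM (493 to 553) in C26_GFP hearts, a log2 fold change of 0.16 ± 0.05 (SE, edgeR adjusted p = 0.0401). Dnajc28 (0.27 ± 0.07) and Dnajc12, a co-chaperone of aromatic amino acid hydroxylases (0.32 ± 0.09), passed with edgeR adjusted p = 0.0231 and 0.0340. Each of the 4 lay partly inside the range of the other group.

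The 2 lower members were Hspa1l, an HSP70 gene next to Hspa1a, and the ER gene Dnajc1. Hspa1l had a median of 26.2 CPM (19.8 to 43.9) in C26_REV-ERBa and 37.8 CPM (25.8 to 50.4) in C26_GFP hearts, a log2 fold change of -0.47 ± 0.13 (SE, edgeR adjusted p = 0.0338). Of its 50-base windows 71.4% are found in other genes as well. Dnajc1 had a median of 33.6 CPM (28.02 to 42.7) in C26_REV-ERBa and 41.5 CPM (33.4 to 46.1) in C26_GFP hearts, a log2 fold change of -0.24 ± 0.07 (SE, edgeR adjusted p = 0.0400). The other classical ER genes had Hsp90b1 at -0.24 ± 0.08, Dnajb9 at -0.22 ± 0.10, Hspa5 at -0.18 ± 0.11 and Dnajc3 at -0.13 ± 0.07, none of which passed (edgeR adjusted p = 0.0633, 0.169, 0.342 and 0.228). Of 30 ER partners 4 were lower and none higher, with a median of -0.12, where 3.45% of all genes were lower and 3.75% higher. Among the 4 were Xbp1 (-0.41 ± 0.12), Atf6 (-0.33 ± 0.09) and P4hb (-0.24 ± 0.06). Xbp1 averaged 126 CPM in C26_REV-ERBa and 167 CPM in C26_GFP hearts.

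All 6 calls were lost when only the compared groups were fitted, with folds alike (edgeR adjusted p = 0.0565 to 0.0774, where 2.65% of all genes passed). The calls also changed with single hearts. Without C26_REV-ERBa replicate 1, 3, 4, 7, 8 or 10, or C26_GFP replicate 1, 2, 7 or 10, 0 to 3 members passed. In these fits 2.29% to 5.18% of all genes passed. Of the 29 ways to leave out 1 heart, Hspa9 lost its call in 14, Dnajc1 in 12, Hspa12a, Hspa1l and Dnajc12 in 8 each, and Dnajc28 in 1. Without C26_REV-ERBa replicate 9, 17 members passed, 6 higher and 11 lower, where 13.8% of all genes passed. Among the 11 were Hspa1a (-1.41 ± 0.27), Hspa1b (-0.79 ± 0.20), Hsp90aa1 (-0.34 ± 0.08) and Hsp90b1 (-0.32 ± 0.07), with edgeR adjusted p = 0.0019, 0.0101, 0.0072 and 0.0040. With all hearts the same genes stood at -0.83 ± 0.34, -0.39 ± 0.26, -0.21 ± 0.11 and -0.24 ± 0.08, and none passed in edgeR (adjusted p = 0.126, 0.374, 0.27 and 0.0633). With limma voom and all hearts 17 members passed, where 13.7% of all genes did. Hspa1a (-1.10), Hspb1 (-0.41) and Hsp90b1 (-0.25) then passed as lower and Hsph1 (0.40) as higher (limma voom adjusted p = 0.0134, 0.0218, 0.0174 and 0.0211). Hspa1b and Hsp90aa1 did not pass (limma voom adjusted p = 0.120 and 0.0579). Replicate 9 aside, Hspa1a had a highest value of 6.81 CPM in the other 9 C26_REV-ERBa hearts, against a median of 9.23 CPM in C26_GFP hearts. Of other members highest in replicate 9, Hspb1 passed as lower in 3 of the 29 ways to leave out 1 heart (edgeR adjusted p = 0.0090 to 0.0337). Hspa8 and Dnajc3 did so in 1 each (edgeR adjusted p = 0.0418 and 0.0385), and Hspa5 in 0. Without C26_GFP replicate 6, 15 members passed, 10 higher and 5 lower, where 13.4% of all genes passed, and Hsph1 was then higher (0.47, against 0.30 ± 0.14 with all hearts). Of 12 immediate early genes 4 were lower and none higher with a median of -0.86, where 3.45% of all genes were lower and 3.75% higher. Their sums were 447 to 682 CPM in C26_REV-ERBa and 494 to 1520 CPM in C26_GFP hearts. Without the 4 C26_GFP hearts highest in them, 0 members and 18 genes (0.14%) passed. Cardiomyocyte markers summed to a median of 46274 CPM in C26_REV-ERBa and 39081 CPM in C26_GFP hearts, and their part in the result was not tested.

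**Figure D5:**
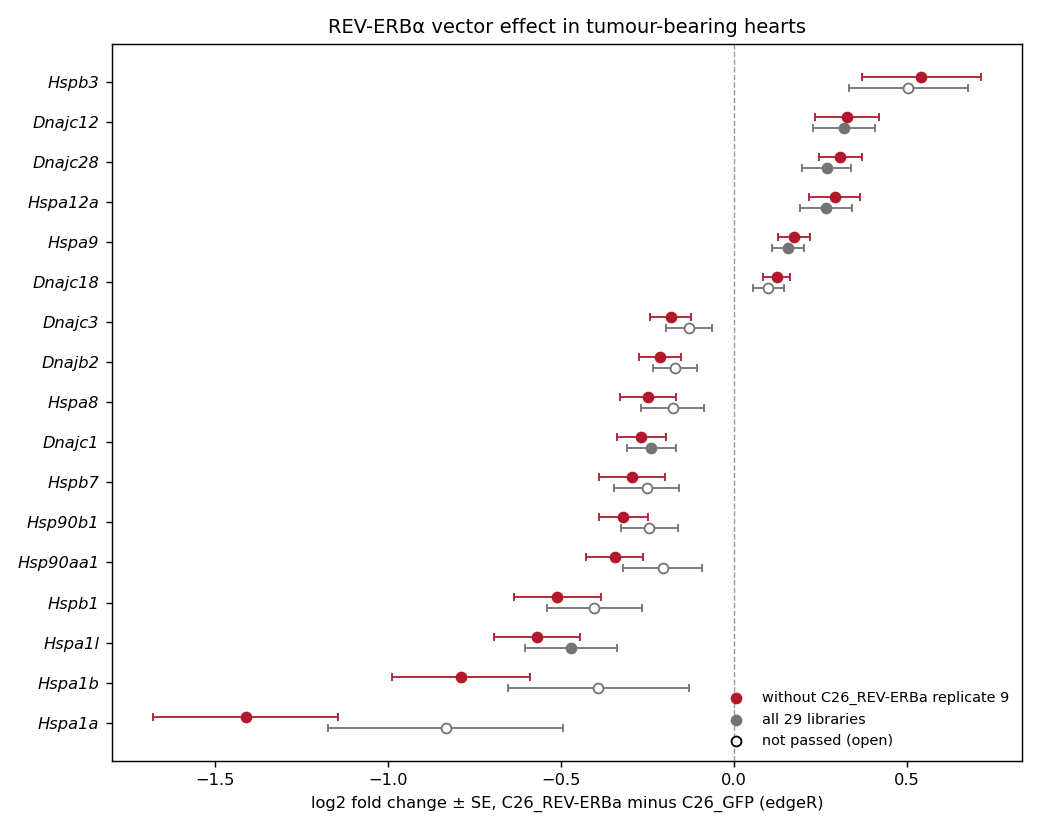
Log2 fold change of C26_REV-ERBa over C26_GFP hearts for 17 members, without C26_REV-ERBa replicate 9 (red) and with all hearts (grey). Bars are SE and filled points passed an adjusted p of 0.05 in edgeR. Hspa1a moved most, to -1.41 without that heart, against -0.83 with it.

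The fourth comparison, PBS_REV-ERBa against PBS_GFP hearts, sets the REV-ERBα virus against the GFP virus without a tumour. No member passed and no gene of the 12928 passed in edgeR (0%) or DESeq2, and 5 members had an unadjusted p below 0.05, all of them cytosolic. The cytosolic median was -0.08, and the ER lumen and mitochondrial medians were both -0.03. For the inducible HSP70 genes the groups did not overlap. The PBS_GFP hearts are also the reference of the first comparison, so the lower values of these genes in both comparisons rest on the same reference hearts. Hspa1b was at 5.52, 7.82, 8.36, 5.56 and 12.4 CPM in PBS_REV-ERBa hearts, against 21.2, 29.2, 17.2 and 18.9 CPM in PBS_GFP hearts. Every PBS_REV-ERBa heart was below every PBS_GFP heart, with a log2 fold change of -1.45 ± 0.34 (SE, edgeR p = 0.000215, adjusted p = 1). Hspa1a was at 12.6, 10.1, 10.2, 16.7 and 8.94 CPM in PBS_REV-ERBa hearts, against 34.0, 38.2, 26.1 and 25.9 CPM in PBS_GFP hearts, again with no overlap, and a log2 fold change of -1.42 ± 0.46 (SE, edgeR p = 0.00454, adjusted p = 1). Their sum averaged 19.6 ± 1.99 CPM in PBS_REV-ERBa and 52.6 ± 11.2 CPM in PBS_GFP hearts (SD, n = 5 and 4).

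Hsp90aa1 was the third member without overlap, at 137.5, 159, 119.5, 148 and 157 CPM in PBS_REV-ERBa hearts, against 167, 216, 177 and 190.4 CPM in PBS_GFP hearts (log2 fold change -0.38 ± 0.17, edgeR adjusted p = 1). Over all genes 1.63% did not overlap between these groups. When each of 3 other settings was used, 1 gene among all tested passed and it was a member, Hspa1a with only the compared groups in the fit (edgeR adjusted p = 0.0205), and Hspa1b with limma voom (adjusted p = 0.00312) or without C26_REV-ERBa replicate 9 (edgeR adjusted p = 0.0150). The 2 deepest tumour-free hearts were both PBS_GFP (replicates 1 and 2), and without the 5 deepest libraries Hspa1b was at -1.17 ± 0.45 and Hspa1a at -1.14 ± 0.62, neither of them passing. In the other 2 PBS_GFP hearts Hspa1b was at 17.2 and 18.9 CPM and Hspa1a at 26.1 and 25.9 CPM, above all 5 PBS_REV-ERBa hearts.

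The last comparison is the difference between the tumour effects, the effect under REV-ERBα minus the effect under GFP. No member and no gene passed in edgeR (0%), DESeq2 called 15 genes and no member, and 9 members had an unadjusted p below 0.05. The cytosolic, ER lumen and mitochondrial medians were 0.03, -0.10 and 0.15. Hsph1 had a difference of 0.64 ± 0.24 (SE, edgeR p = 0.0123, adjusted p = 0.37), its tumour effects being -0.57 under REV-ERBα and -1.21 under GFP. Hspa1b had 1.06 ± 0.44 (edgeR adjusted p = 0.407), Dnajb1 had -0.70 ± 0.29 (adjusted p = 0.406) and Hspa4l had 0.32 ± 0.13 (adjusted p = 0.396). All 8 mitochondrial differences were above 0 and 7 of 8 ER lumen differences were below 0, none of them passing. The tumour effects in the 2 virus groups are therefore not shown to differ for any member, and a p that misses the threshold does not show that they are alike.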

How the data were processed

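RNA was measured in 29 mouse hearts, 1 library per animal. The authors deposited raw counts per gene. Per the submitters' processing notes, STAR 2.4.2a, DESeq2 1.24.0 and build mm10 were used; the tool that counted reads, and whether it used strand, is not named in the sources used here, so genes that overlap another on the opposite strand (Dnajc1, Dnaja1, Hspb2, Dnajc30 and Dnajc19 among them) are uncertain. Of the members, 11 of 72 share over 40% of their 50-base windows with other genes. The table holds 1 further per-sample column that matched no label and was not used.

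Genes were tested with edgeR 4.0.16 (R 4.3.3) by its quasi-likelihood test on the counts as deposited, with TMM scaling, a filter (filterByExpr, minimum count 10, minimum total 15), all 29 libraries, 4 group means, no covariates and Benjamini-Hochberg adjustment over 12928 genes. Standard errors were taken as the log2 fold change divided by the root of the F statistic. CPM are per TMM-scaled library, and summed Hspa1a and Hspa1b counts were tested in place of the single genes. DESeq2 1.42.0 and limma 3.58.1 voom served as alternatives, with other scalings, filters, thinning to equal depth, a replicate block and leaving out each heart. The scripts were tested on simulated data. Library totals of 3207497 to 16853646 counts limit precision for genes of a few CPM. No 2 libraries were alike within counting noise (chi-square over its degrees of freedom was at least 2.64).

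The deviations of same-numbered hearts of different groups correlated at r from -0.35 to 0.30 (32 pairs, 5 of them over 0.1). Differently numbered hearts were not set beside them, so this check cannot exclude that the numbers pair hearts.

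The members, compartments, partner and marker lists were chosen with earlier results of these data known. Members named are 19 classical chaperones fixed by name plus those with the smallest p that passed in each comparison (up to 8 in the tumour effect in GFP mice and the virus effect in tumour-bearing mice, up to 4 elsewhere, or the 3 smallest p where none passed), and up to 4 partners per list; further members named beside them were named with their values known.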

Additional observations from a re-analysis of the deposited data

Results flagged for a closer look

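In 16 of 112 sets of values (28 members in 4 groups), 1 heart lay further from its group than Dixon's test allows at the 95% level, and chance alone gives about 1 in 20. C26_REV-ERBa replicate 9 accounts for 8 of the 16, as the highest of its group each time. It had 23.8 CPM of Hspa1a (next heart 6.81), 11.4 CPM of Hspa1b (next 3.35), 827 CPM of Hspa8 (next 632), 204.6 CPM of Hsp90aa1 (next 126), 359.7 CPM of Hspb1 (next 243), 948 CPM of Hspa5 (next 686), 306 CPM of Hsp90b1 (next 224) and 142 CPM of Dnajc3 (next 113). These span cytosolic and ER chaperones. The same heart had the highest adipocyte sum of its group (470.7 CPM) and the lowest cardiomyocyte sum (35174 CPM), and the part of either was not tested.

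C26_GFP replicate 10 was highest for Hspa1a (26.02 CPM, next 15.1) and Dnajc3 (159 CPM, next 129). C26_GFP replicate 6 was highest for Hsph1 (66.6 CPM, next 35.6) and Hspa4 (198 CPM, next 153), both of the HSP110 family. PBS_REV-ERBa replicate 2 was highest for Hspa4 (213 CPM, next 192) and C26_REV-ERBa replicate 8 for Hspa9 (701 CPM, next 576). PBS_GFP replicate 1 was highest for Dnajc12 (10.9 CPM, next 8.52), and PBS_GFP replicate 3 was lowest for Hsp90ab1 (1196 CPM, next 1360).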

How the results depend on the processing

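Over 44 settings, none of 6113 values for single named genes changed sign in a call. Of them 5914 kept their side of the threshold, 139 no longer passed and 60 newly passed. They include the virus effect in tumour-free mice and the difference of tumour effects, where no member had passed and no call could be lost. The 5914 therefore does not measure how often a call held. For the tumour effect in GFP mice (27 members passed), 14 passed without libraries above 10000000 counts (15% of all genes). With all libraries thinned to equal depth 17 passed (19.1%), and the cytosolic median was -0.27. Leaving out 1 heart gave 20 (without PBS_GFP replicate 1, 21.4% of all genes) to 30 (without C26_GFP replicate 6, 32.1%). For the virus effect in tumour-bearing mice, 6 members passed where 7.2% of all genes did, and in other settings both changed. With no filter 3 passed (4.05% of all genes), with only the compared groups 0 (2.65%), and with the replicate block 0 (2.25%, adjusted p of the 6 members 0.0521 to 0.0809). With voom 17 passed (13.7%), at an adjusted p of 0.1 12 (13.2%), without the deepest libraries 10 (10%), and with thinning 3 (3.11%). Without the hearts highest in immediate early genes 0 passed (0.14%). Leaving out 1 heart gave 0 (without C26_REV-ERBa replicate 7, 2.29%) to 17 (without C26_REV-ERBa replicate 9, 13.8%). For the virus effect in tumour-free mice (0 passed), 1 passed with only the compared groups (0.0084% of all genes) and 1 with voom (0.00774%). Leaving out 1 heart gave 0 to 1 (at most 0.00775%). For the tumour effect under the REV-ERBα virus (11 passed), 6 passed with the replicate block (3.48% of all genes) and 7 without hearts high in atrial markers (3.26%). Leaving out 1 heart gave 4 (without PBS_REV-ERBa replicate 2, 4.03%) to 12 (without C26_REV-ERBa replicate 7 or 9, 9.3% and 6.13%). No member passed for the difference of tumour effects under any setting. On leaving out 1 heart, the cytosolic medians ranged from -0.23 to -0.10, from -0.08 to -0.03, from -0.11 to -0.05 and from -0.30 to -0.18 in these 4 comparisons, and the ER lumen medians from 0.12 to 0.18, from -0.21 to -0.08, from -0.06 to 0.00 and from 0.03 to 0.10. The causes were not tested.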
